A study of Mus musculus with 22 samples.

Results

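The enzymes that write and erase methyl groups on histone lysines were followed by the RNA of their genes in mouse cells and brain with and without the histone demethylase gene Phf8. The 40 genes, 22 methyltransferases (writers) and 18 demethylases (erasers), were taken by name from a fixed list. Each was located by its Ensembl identifier among the 39179 gene identifiers counted in every sample. No measured value entered the rule of the list, but genes and gene lists were chosen with earlier results of these data known. Phf8 and its relatives Phf2 and Kdm7a were left out of the 40 and serve only as checks. All 40 genes were counted in all 22 RNA sequencing samples. Of these, 39 passed the low-count filter in embryonic stem cells (ESCs) and in neural progenitor cells (NPCs), where Kdm4d did not, and all 40 passed it in ventral striatum (STR) and prefrontal cortex (PFC).

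The question of the study was what the loss of Phf8 does to gene activity. Wild-type (WT) and Phf8 knockout (KO) samples were compared in 4 sources, with 2 WT and 2 KO samples of ESCs and 3 of each genotype of NPCs, STR and PFC. All samples carried the strain label B6x129SvJ. In the KO, Cre recombinase had removed a loxP-flanked segment with exon 7 and exon 8, which encode part of the catalytic JmjC domain, from the Phf8 gene on the X chromosome, in an allele that began as a targeted clone of male stem cells. The ESCs came from blastocysts and were grown on gelatin with feeder cells, their sex is not labelled, the NPCs were cultured as a monolayer from embryonic brain, and STR and PFC were bulk tissue of mice aged 2 months. No treatment is labelled for any group, and the labels distinguish WT from KO by genotype alone. WT and KO ESCs also differed in Y-linked RNA, as given below. The labels do not say which samples came from separate cultures or animals, so every p-value below measures the spread between these samples, which may be technical.

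Histone lysine methylation is set by writers, most of which carry a catalytic SET domain, and removed by 2 families of erasers, the flavin-dependent enzymes Kdm1a and Kdm1b and the iron-dependent JmjC enzymes to which Phf8 belongs. Trimethylation of lysine 4 of histone H3 (H3K4) marks active promoters, H3K27 trimethylation marks genes silenced by Polycomb, H3K9 methylation marks heterochromatin, and H3K36 and H3K79 methylation accompany transcription. Phf8 removes methyl groups from H3K9, H3K27 and H4K20, so the writers and erasers of those marks among the 40 share substrates with it.

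The promoters of a pair of Polycomb writers and a pair of H4K20 writers are shown first, because within each pair the levels moved apart between tissues and 1 window of each pair holds a match to the motif searched. Each is the RefSeq window on mouse assembly GRCm38.p6 from 250 bases before to 50 bases after a RefSeq start of the gene, printed 5′ to 3′ on the strand of the gene. Where several starts were listed, the one nearest the gene's start in the GENCODE annotation was used. For Ezh2 the RefSeq start lay 311 bases from the GENCODE start, and for Kmt5c it lay 12 bases away. Capitals mark a match to any of 4 forms of the E2F motif searched on both strands (TTTCCCGC, TTTCGCGC, TTTGCCGC and TTTGGCGC). The Ezh2 and Kmt5c windows each held 1 match, at base 254 and, on the other strand, base 146 of the window, and the windows of their paralogs Ezh1 and Kmt5b held none. Since the pairs were picked on both level and match, this pattern was fixed by the choice. The windows of Suv39h1 and Suv39h2, a pair whose levels also moved apart, held no match. Whether a match goes with the level of a gene was not tested.
Ezh2 (chr6:47594981-47595280, minus strand): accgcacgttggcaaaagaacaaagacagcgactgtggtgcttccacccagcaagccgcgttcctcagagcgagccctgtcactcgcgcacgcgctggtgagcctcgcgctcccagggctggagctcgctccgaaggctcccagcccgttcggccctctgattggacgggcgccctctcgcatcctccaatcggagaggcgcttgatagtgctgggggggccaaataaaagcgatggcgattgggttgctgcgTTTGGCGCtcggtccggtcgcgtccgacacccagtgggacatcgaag
Ezh1 (chr11:101226414-101226713, minus strand): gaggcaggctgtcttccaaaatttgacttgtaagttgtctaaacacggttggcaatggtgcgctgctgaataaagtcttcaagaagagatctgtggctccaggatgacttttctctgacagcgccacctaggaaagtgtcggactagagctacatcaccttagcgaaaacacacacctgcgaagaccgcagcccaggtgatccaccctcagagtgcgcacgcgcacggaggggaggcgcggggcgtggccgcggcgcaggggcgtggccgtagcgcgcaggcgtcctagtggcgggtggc
Kmt5c (chr7:4739877-4740176, plus strand): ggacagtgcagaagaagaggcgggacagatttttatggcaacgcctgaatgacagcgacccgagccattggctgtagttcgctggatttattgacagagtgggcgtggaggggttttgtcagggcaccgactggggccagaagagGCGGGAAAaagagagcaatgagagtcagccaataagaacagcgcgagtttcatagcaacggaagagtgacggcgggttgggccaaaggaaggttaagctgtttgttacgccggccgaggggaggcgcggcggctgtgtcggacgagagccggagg
Kmt5b (chr19:3767171-3767470, plus strand): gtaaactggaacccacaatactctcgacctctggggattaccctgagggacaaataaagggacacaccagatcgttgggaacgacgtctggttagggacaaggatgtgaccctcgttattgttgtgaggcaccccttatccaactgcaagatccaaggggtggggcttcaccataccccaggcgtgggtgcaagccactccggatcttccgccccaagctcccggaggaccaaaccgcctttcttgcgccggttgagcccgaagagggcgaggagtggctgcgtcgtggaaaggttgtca

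A RefSeq window was at hand for 31 of the 40 genes, and the other 9 (Kmt2b, Setd1b, Prdm2, Nsd1, Kdm2a, Kdm3b, Kdm4b, Kdm5a and Kdm6b) were not searched. The RefSeq start lay farthest from the GENCODE start for Jmjd1c (30963 bases), Kdm2b (724) and Setd1a (719). Ezh2 and Kmt5c were the 2 matches to the E2F letters among the 31, a share of 6.45%, against 2.27% of the 32841 windows of all genes. For each of the 31 genes, only the window nearest its GENCODE start was counted. The 32841 windows were not limited to genes expressed here and may include several starts of a gene. The sets were therefore not matched, and whether the writers and erasers differ from other expressed genes in these features was not tested. Beside this unmatched set, the windows of the 31 genes were GC-rich. Their median GC content was 62.7% against 52.7% over all windows, and they held a median of 26 CpG dinucleotides against 7. The GC box GGGCGG stood in 67.7% of them and in 35.7% of all windows, and TATAAA stood in none of them and in 13.6% of all windows. A match describes the letters of the window and is not a mapped binding site.

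Each sample held between 5898286 and 15539811 reads counted to genes. Reads of Phf8 in RPKM (reads per kilobase of exon, scaled to sequencing depth and normalized across all 22 samples) averaged 7.21 in WT and 2.08 in KO ESCs, 4.48 and 1.68 in NPCs, 4.99 and 1.92 in STR, and 4.62 and 1.81 in PFC, and the decrease passed the test in NPCs and PFC and over all samples together (log2 fold change -1.46, adjusted p = 7.96e-10). The sources carried their own markers: the summed RPKM of 5 pluripotency genes was 1262 to 1584 in ESCs and at most 2.36 elsewhere, and that of 5 striatal genes was 266 to 362 in striatum and 39.5 to 47.4 in PFC. Replicate 2 stood apart from the others in both cultured sources and in both genotypes, with more fibroblast RNA in ESCs (summed RPKM of 6 genes 418 in WT and 508 in KO, against 19.1 and 18.2 in replicate 1) and less oligodendrocyte RNA in NPCs (8.34 in WT and 33.3 in KO, against 254 to 430 in the others). The genes studied here moved with that difference. In ESCs, 29 of the 39 measured (74.4%) were lower in replicate 2 than in replicate 1 in both genotypes, against 38.1% of all genes, and in NPCs 18 of 39 (46.2%) were highest in replicate 2 in both genotypes, against 27.3%. These shares were described after the data had been seen. In bulk samples, fewer cells of a type and less RNA per cell cannot be told apart.

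The writers and erasers were most abundant in ESCs and least abundant in adult brain. Their median level over the 40 genes was 17.5 RPKM in WT ESCs, 11.9 in NPCs, 6.53 in striatum and 6.10 in PFC. The mean over WT samples was highest in ESCs for 27 genes, in NPCs for 6, in STR for 6 and in PFC for 1, the H3K27 writer Ezh1. The lowest mean fell in PFC for 24 genes, in STR for 7, in NPCs for 5 and in ESCs for 4. Summed over the 22 writers, the level was 405 ± 43.7 RPKM in ESCs (SD, n = 2), 274 ± 12.7 in NPCs, 189 ± 14.5 in striatum and 180 ± 11.7 in PFC (SD, n = 3 each). Summed over the 18 erasers, it was 448 ± 28.9 RPKM in ESCs, 287 ± 23.8 in NPCs, 145 ± 10.7 in striatum and 133 ± 8.86 in PFC. ESCs lay above NPCs and NPCs above both brain regions for both sums, with no overlap between samples, while STR and PFC overlapped. The libraries also differed between sources. Reads aligned to more than 1 place made up 43.2 to 45.5% in ESC samples, 33.2 to 34.3% in NPC samples and 7.62 to 8.90% in brain samples. The part of this difference in the levels was not tested.

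**Figure D1:**
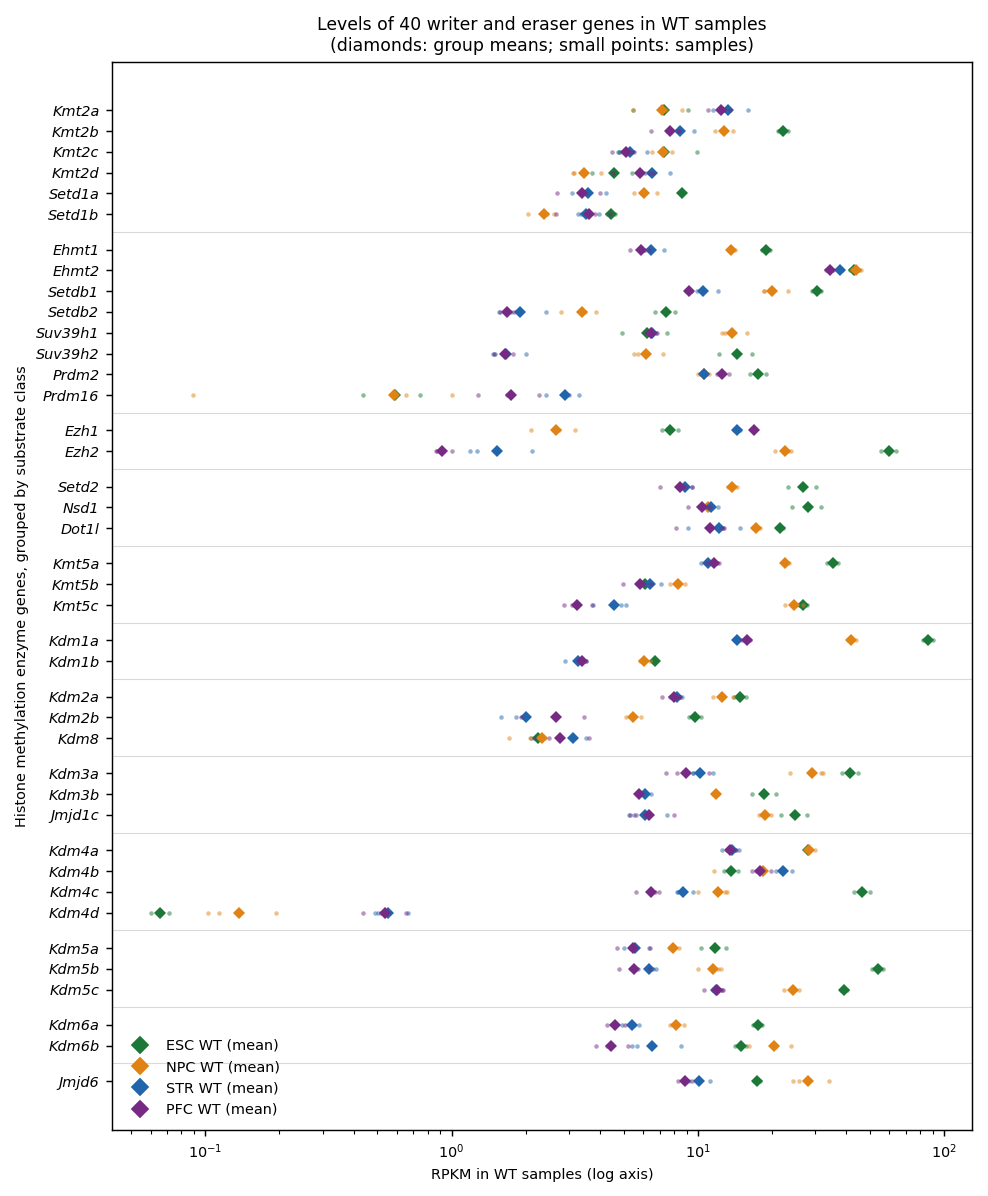
Mean level of each of the 40 genes in WT samples on a log axis in RPKM, by source, with genes grouped by the mark they write or erase. ESC means sit above the others for 27 genes, and Ezh1 is the only gene with its highest mean in PFC.

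Between WT NPCs and WT ESCs, 26 of the 39 genes tested passed a false discovery rate of 0.05 in edgeR's quasi-likelihood test, 4 higher and 22 lower in NPCs, beside 71.2% of all genes tested (34.6% higher and 36.6% lower). The share called among the writers and erasers was 66.7%, and the direction was mostly downward, with a median log2 fold change of -0.40 against -0.02 over all genes. Between WT PFC and WT NPCs, 36 of 40 passed, 6 higher and 30 lower in PFC, beside 77.1% of all genes tested (40% higher and 37.1% lower), with a median of -0.83 against 0.04. Among the 6 is Kdm4d, which entered this contrast through its PFC counts only. Scaling by library size alone moved the median of all genes in the PFC and NPC comparison by 0.315 on the log2 scale, and 32 genes passed under it, 7 higher and 25 lower. The proliferation markers fell along the same order, from a summed RPKM of 509 to 640 in ESCs over 133 to 218 in NPCs to 3.65 to 5.47 in the brain regions. Their part in these differences was not tested. Culture, cell type and differences in library or counting cannot be told apart between NPCs and PFC. The strand setting of the counting is not given and may differ between cultured and brain samples. With any 1 sample left out, replicate 2 included, 20 to 26 genes passed between NPCs and ESCs and 34 to 37 between PFC and NPCs. These contrasts are called the ESC to NPC step and the NPC to PFC step below, and paired values are given in that order.

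Of the 6 H3K4 writers, the Mixed lineage leukaemia relatives Kmt2a to Kmt2d and the Set1 enzymes Setd1a and Setd1b, the most abundant over the WT means was Kmt2b (12.8 RPKM) and the least abundant Setd1b (3.49). Kmt2b held 23.3 and 21.1 RPKM in WT ESCs, 11.7, 13.8 and 12.9 in NPCs, 9.61, 8.21 and 7.49 in striatum and 8.34, 8.38 and 6.47 in PFC. It was lower at each step down to the brain (NPCs against ESCs -0.69 (SE 0.11, adjusted p = 0.00284), PFC against NPCs -0.72 (SE 0.13, adjusted p = 0.000938)), and STR and PFC overlapped. Kmt2a, a writer at developmental genes, went the other way, with 9.12 and 5.46 RPKM in ESCs, 5.46, 8.64 and 7.41 in NPCs, 15.9, 12.4 and 11.6 in striatum and 12.8, 13.6 and 10.9 in PFC. The PFC samples lay above all NPC samples (log2 fold change 0.80, SE 0.17, adjusted p = 0.00313), and ESCs did not differ detectably from NPCs (95% interval of the log2 fold change -0.64 to 0.82). Kmt2d, which with Kmt2c monomethylates H3K4 at enhancers, was also higher in PFC than in NPCs, by 0.76 (SE 0.17, adjusted p = 0.00354) on the log2 scale, and Kmt2c was lower, at -0.49 (SE 0.12, adjusted p = 0.00534). The Set1 pair split in the same contrast, with Setd1a at -0.83 and Setd1b at 0.62 (adjusted p = 0.00183 and 0.0163). Both Set1 genes fell from ESCs to NPCs.

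Among the 8 H3K9 writers, Ehmt2 (G9a), which dimethylates H3K9 in euchromatin as a partner of Ehmt1, was the most abundant at 39.9 RPKM over the WT means. It varied little, holding 45.01 and 41.5 RPKM in ESCs, 43.7, 45.9 and 42.4 in NPCs, 38.1, 38.3 and 37.2 in striatum and 33.1, 34.8 and 35.3 in PFC. Its decrease from NPCs to PFC passed the test (log2 fold change -0.35, SE 0.09, adjusted p = 0.00863), but not when libraries were scaled by size alone (-0.04). Ehmt1 fell at both steps, by 0.37 and 1.21 on the log2 scale. The ratio of Ehmt2 to Ehmt1 within a sample therefore ran from 2.28 in both ESC samples over 3.17 to 3.27 in NPCs to 5.21 to 6.38 in striatum and 5.48 to 6.67 in PFC.

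Suv39h1 and Suv39h2 trimethylate H3K9 in pericentromeric heterochromatin. Suv39h2 held 16.6 and 12.2 RPKM in ESCs, 5.72, 7.25 and 5.51 in NPCs, 2.02, 1.502 and 1.47 in striatum and 1.77, 1.68 and 1.49 in PFC. Suv39h1 held 7.49 and 4.93 RPKM in ESCs, 12.9, 15.8 and 12.5 in NPCs, 6.33, 6.46 and 6.78 in striatum and 6.13, 6.47 and 6.84 in PFC. The paralogs moved in opposite directions from ESCs to NPCs, Suv39h1 by 1.26 (SE 0.22, adjusted p = 0.00387) and Suv39h2 by -1.11 (SE 0.19, adjusted p = 0.00368), so that Suv39h2 exceeded Suv39h1 in ESCs alone. Both were lower in PFC than in NPCs, at -1.08 and -1.89. Exons of other genes cover 14.6% of the Suv39h1 and 9.98% of the Suv39h2 exon bases, and since the strand setting of the counting is not given in the sources used here, those reads cannot be assigned with certainty. The same holds for 9.19% of the Kdm1b, 7.6% of the Kdm2b, 7.34% of the Jmjd6 and 6.28% of the Kmt5b exon bases and for at most 4.11% in any other gene here except Kdm3b.

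Setdb1, which silences retroelements, and its relative Setdb2 fell at both steps, Setdb1 by 0.49 and 1.11 and Setdb2 by 1.02 and 1.01 on the log2 scale. Their ratio stayed within 3.93 to 7.77 over all WT samples. Prdm2 was highest in ESCs (18.9 and 16.2 RPKM), fell to 10.8, 9.997 and 11.1 in NPCs, and stood at 12.5, 13.3 and 11.9 in PFC (0.25 against NPCs, adjusted p = 0.0333). Prdm16 was the least abundant H3K9 writer, with 1.45 RPKM over the WT means. It held 0.436 and 0.741 RPKM in ESCs, 1.004, 0.0895 and 0.653 in NPCs, 2.999, 2.42 and 3.28 in striatum and 1.29, 2.27 and 1.68 in PFC. All WT brain samples lay above all WT cultured samples, but the contrast of PFC with NPCs did not pass (log2 fold change 1.58, SE 0.68, adjusted p = 0.0723).

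The sharpest switch was between the H3K27 writers. Ezh2 (chr6:47530139-47595341, GRCm38), the main catalytic subunit of Polycomb repressive complex 2 (PRC2) in dividing cells, held 63.7 and 55.2 RPKM in ESCs, 20.6, 23.99 and 23.3 in NPCs, 2.12, 1.27 and 1.19 in striatum and 1.004, 0.875 and 0.868 in PFC. Its ranges in the 4 sources did not overlap, and the ESC mean was 64.95 times the PFC mean. Its alternative Ezh1 (chr11:101191115-101226463) held 8.34 and 7.13 RPKM in ESCs, 2.1, 3.17 and 2.72 in NPCs, 14.01, 14.8 and 14.3 in striatum and 16.5, 17.1 and 17.1 in PFC, again without overlap. From ESCs to NPCs both fell, Ezh2 by 1.29 (SE 0.11, adjusted p = 0.00038) and Ezh1 by 1.43 (SE 0.20, adjusted p = 0.00179) on the log2 scale. From NPCs to PFC they parted, Ezh2 at -4.62 (SE 0.13, adjusted p = 1.03e-07), the largest decrease among the 40, and Ezh1 at 2.67 (SE 0.16, adjusted p = 1.92e-06), the largest increase. Within a sample the ratio of Ezh2 to Ezh1 was 7.64 to 7.75 in WT ESCs, 7.58 to 9.79 in NPCs, 0.0832 to 0.151 in striatum and 0.0508 to 0.0608 in PFC.

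The writers of H3K36 and H3K79 all fell from ESCs to NPCs. Setd2, which trimethylates H3K36, fell by 0.85 from ESCs to NPCs and by 0.70 from NPCs to PFC on the log2 scale. Dot1l, the H3K79 methyltransferase and the most abundant of the 3 at 15.6 RPKM, held 22.2 and 21.04 RPKM in ESCs, 17.1, 16.8 and 17.8 in NPCs, 14.9, 12.7 and 9.08 in striatum and 12.7, 12.6 and 8.15 in PFC, and the step from ESCs to NPCs was at the edge of the threshold (log2 fold change -0.22, SE 0.08, adjusted p = 0.04996). Nsd1, which dimethylates H3K36, fell from 31.6 and 24.2 RPKM in ESCs to 10.4, 11.5 and 10.98 in NPCs (log2 fold change -1.24, SE 0.13, adjusted p = 0.000654), and its PFC samples overlapped the NPC samples (log2 fold change -0.07, 95% interval -0.32 to 0.18).

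The H4K20 writers act in order, Kmt5a adding the first methyl group and Kmt5b and Kmt5c the further ones. Kmt5a was the most abundant over the WT means (20.1 RPKM) and fell at both steps, by 0.54 and 0.95 on the log2 scale. Kmt5c (chr7:4740115-4747514) held 27.8 and 25.7 RPKM in ESCs, 24.2, 22.5 and 26.8 in NPCs, 5.09, 4.88 and 3.75 in striatum and 2.86, 3.71 and 3.09 in PFC. ESCs and NPCs overlapped and both stood above all brain samples (PFC against NPCs log2 fold change -2.92, SE 0.13, adjusted p = 6.06e-07). Kmt5b (chr19:3767421-3818303) held 6.34 and 5.82 RPKM in ESCs, 8.32, 7.72 and 8.86 in NPCs, 7.08, 5.96 and 6.18 in striatum and 6.47, 6.05 and 4.97 in PFC. It was higher in NPCs than in ESCs (log2 fold change 0.56, SE 0.10, adjusted p = 0.003901), and its decrease from NPCs to PFC (-0.50, adjusted p = 0.00451) did not pass with libraries scaled by size alone (-0.19). The ratio of Kmt5c to Kmt5b was 4.38 to 4.43 in WT ESCs, 2.91 to 3.02 in NPCs, 0.606 to 0.819 in striatum and 0.442 to 0.622 in PFC.

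**Figure D2:**
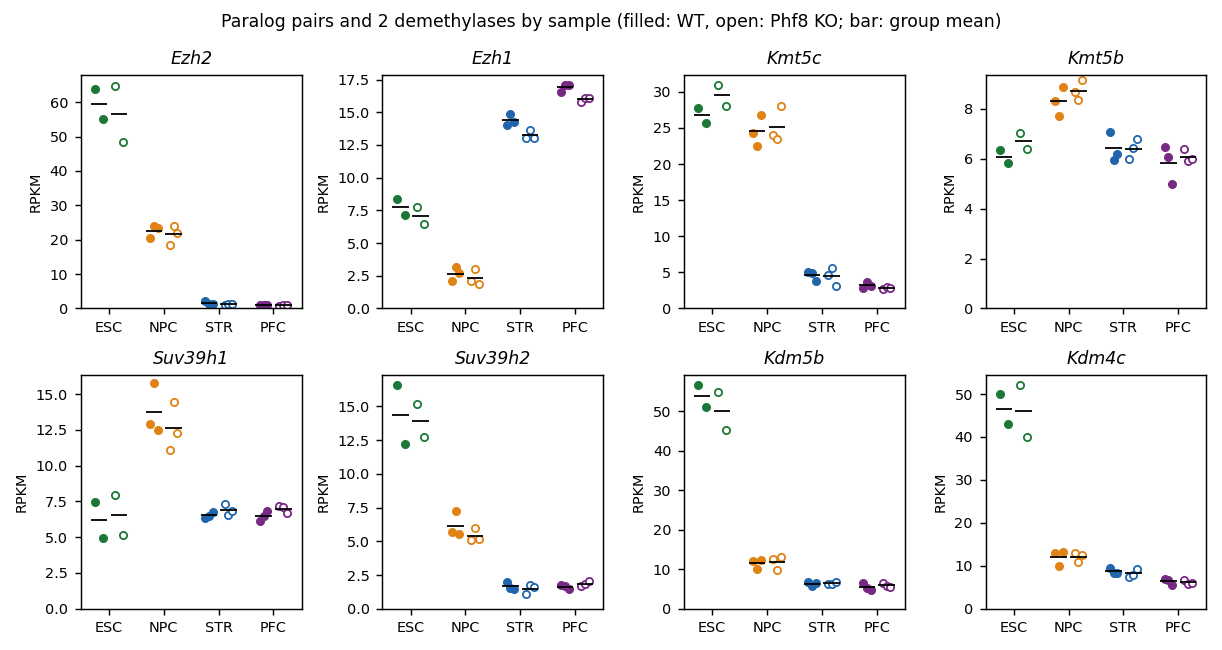
Level in RPKM on a linear axis of Ezh2, Ezh1, Kmt5c, Kmt5b, Suv39h1, Suv39h2, Kdm5b and Kdm4c, 1 point per sample, in WT and KO samples of the 4 sources. Ezh2 lies above Ezh1 in every cultured sample and below it in every brain sample, in both genotypes.

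The erasers were led by Kdm1a (LSD1), the flavin-dependent eraser of H3K4 mono- and dimethylation. It held 90.4 and 82.2 RPKM in ESCs, 41.6, 40.6 and 43.8 in NPCs, 14.5, 14.4 and 14.4 in striatum and 16.01, 15.2 and 16.2 in PFC, and it was the most abundant of the 40 genes in ESCs. It fell at both steps (NPCs against ESCs -0.93 (SE 0.09, adjusted p = 0.000431), PFC against NPCs -1.41 (SE 0.09, adjusted p = 3.61e-06)). Its relative Kdm1b stood at 6.72 ± 0.0775 RPKM in ESCs (SD, n = 2) and 6.06 ± 0.304 in NPCs (SD, n = 3), fell by 0.84 from NPCs to PFC, and did not pass the test between ESCs and NPCs (95% interval -0.30 to 0.22). The ratio of Kdm1a to Kdm1b went from 12.3 to 13.3 in ESCs to 6.51 to 7.32 in NPCs and 4.55 to 4.903 in PFC.

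The JmjC erasers of H3K4 all fell at both steps. Kdm5b held 56.6 and 50.97 RPKM in ESCs, 12.1, 9.997 and 12.4 in NPCs, 6.76, 5.71 and 6.55 in striatum and 6.41, 5.35 and 4.81 in PFC. Its drop from ESCs to NPCs was the largest among the 39 genes tested (log2 fold change -2.12, SE 0.12, adjusted p = 0.000124). The X-linked Kdm5c, an intellectual disability gene in people, was the most abundant of the 3 at 21.8 RPKM over the WT means, and Kdm5a the least abundant at 7.66.

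Of the erasers that share H3K9 with Phf8, Kdm3a held 44.7 and 38.3 RPKM in ESCs, 31.5, 23.7 and 32.3 in NPCs, 11.5, 9.58 and 9.57 in striatum and 11.2, 8.26 and 7.43 in PFC. It and Jmjd1c did not pass from ESCs to NPCs and fell by 1.7 and 1.57 from NPCs to PFC. Kdm3b fell at both steps, by 0.55 and 1.03, with 24.6% of its exon bases shared with another gene. The Kdm4 enzymes, which demethylate H3K9 and, in some members, H3K36, each followed another course. Kdm4c fell from 49.99 and 43.1 RPKM in ESCs to 12.9, 10.1 and 13.1 in NPCs (log2 fold change -1.85, SE 0.14, adjusted p = 0.000243) and further to 6.97, 6.72 and 5.62 in PFC. Kdm4a, the most abundant at 20.9 RPKM, overlapped between ESCs and NPCs (28.2 and 28.01 against 29.8, 27.6 and 27.4) and was lower in PFC (-1.06, adjusted p = 1.52e-05). Kdm4b held 12.7 and 14.5 RPKM in ESCs, 21.9, 11.6 and 21.9 in NPCs, 24.1, 21.7 and 20.7 in striatum and 17.3, 19.9 and 16.6 in PFC, and passed neither step. Kdm4d was the least abundant of all 40 genes at 0.323 RPKM over the WT means. Its level was 0.653, 0.518 and 0.438 RPKM in PFC and 0.114, 0.195 and 0.103 in NPCs, a log2 fold change of 1.99 (SE 0.37). That value rests on 8 to 17 reads per PFC sample and 4 to 6 per NPC sample. Kdm4d had not passed the low-count filter in NPCs and entered this contrast through its PFC counts. Its call there is therefore no separate support for the difference.

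The H3K36 erasers Kdm2a and Kdm2b bind unmethylated CpG islands. Kdm2a, the most abundant of its class at 10.9 RPKM, did not pass from ESCs to NPCs and fell by 0.65 to PFC, while Kdm2b fell by 0.74 and 1.02. Kdm8, the third of the class and the least abundant at 2.61 RPKM, passed no WT tissue contrast. The H3K27 erasers diverged between the cultured sources. Kdm6b (Jmjd3), induced by many differentiation signals, held 14.2 and 15.7 RPKM in ESCs, 20.8, 16.1 and 23.97 in NPCs, 8.58, 5.38 and 5.66 in striatum and 5.202, 4.26 and 3.88 in PFC. It was higher in NPCs than in ESCs (log2 fold change 0.55, SE 0.18, adjusted p = 0.03997) and fell to PFC (log2 fold change -2.18, SE 0.17, adjusted p = 1.01e-05), while the X-linked Kdm6a fell at both steps, by 0.99 and 0.81. The Kdm6b increase did not pass in edgeR's test on KO samples (0.52, adjusted p = 0.0553) or with the replicate number as a block (0.41, adjusted p = 0.165). Jmjd6 is counted here among the erasers, though it has been described as an arginine demethylase and as a lysyl hydroxylase. It peaked in NPCs at 24.4, 25.7 and 34.1 RPKM, against 16.9 and 17.9 in ESCs and 8.82, 8.31 and 9.44 in PFC (0.79 and -1.66 on the log2 scale, adjusted p = 0.00919 and 1.96e-05).

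The 41 partner genes of 5 lists were read against the shares of all genes called at the same steps, 34.6% higher and 36.6% lower at the first and 40% higher and 37.1% lower at the second. The lists were not tested against each other or against all genes. Of the PRC2 subunits that accompany Ezh1 and Ezh2, 1 rose and 7 fell of 9 from ESCs to NPCs, and 1 rose and 5 fell from NPCs to PFC. Eed, which reads the H3K27 mark, changed by -2.56 and -1.40 on the log2 scale, and Suz12, which holds the complex together, by -1.74 and -1.34. Of the subunits shared by H3K4 writers, 3 rose and 6 fell of 9 at the first step and 1 rose and 6 fell at the second, with Wdr5 at -2.56 and -0.58. Of the CoREST partners of Kdm1a, 2 rose and 3 fell of 7 at the first step and none rose and 6 fell at the second. The list of H3K9 partners gave none higher and 3 lower of 6, and then none higher and 6 lower. Of the other methyltransferase genes, 5 rose and 2 fell of 10 at the first step, and 7 rose and 2 fell at the second.

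Between the brain regions, 7 of the 40 genes passed the test, 1 higher and 6 lower in WT PFC than in WT STR, beside 24.4% of all genes tested (13.0% higher and 11.4% lower). The share among the writers and erasers was 17.5%. Ezh1 was the gene higher in PFC (log2 fold change 0.21, SE 0.07, adjusted p = 0.0473). The lower ones, all named, were Ezh2 at -0.77 (adjusted p = 0.0403), Prdm16 at -0.74 (adjusted p = 0.0187), Kdm6b at -0.58 (adjusted p = 0.04101), Kmt5c at -0.53 (adjusted p = 0.0367), Kdm4c at -0.45 (adjusted p = 0.0115) and Kdm4b at -0.33 (adjusted p = 0.0273). These calls were sensitive to single samples. Without WT STR replicate 1, no gene passed, and without any other single sample of the contrast 2 to 5 did. With the replicate number as a block, which the pairing of the samples allowed (correlations of 0.36, 0.186 and 0.392 between same-numbered samples), 13 passed, 3 higher and 10 lower, among them all 7, beside 34.7% of all genes (18.2% higher and 16.5% lower).

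Loss of Phf8 was followed by no detected change in any writer or eraser. The quasi-likelihood test of edgeR did not call the decrease of Phf8 itself in ESCs or STR (log2 fold change -1.79 and -1.37). A missing call in those sources therefore does not exclude a change. Of the 39 genes tested in ESCs and in NPCs and the 40 in STR and in PFC, none passed a false discovery rate of 0.05 in edgeR's quasi-likelihood test, and none passed in DESeq2, in edgeR's exact test or with any single sample left out. For comparison, the quasi-likelihood test called 0% of all genes in ESCs, 0.00697% in NPCs, 0% in striatum and 0.638% in PFC (0.163% higher and 0.475% lower in KO), the exact test 0.00663%, 0.0139%, 0.601% and 2.45%, and DESeq2 0.0199%, 0.0348%, 0.342% and 1.18%. The PFC share stands for 98 genes, and single samples moved it: 154 genes passed without WT replicate 1, 18 without WT replicate 2, 37 without KO replicate 1, and 2 without KO replicate 2 or without KO replicate 3, with none of the 40 among them. In the fit that shares a single genotype effect over the 4 sources none of the 40 passed either, beside 0.0442% of all genes (0.0221% higher and 0.0221% lower). At an unadjusted p under 0.05, the test picked 0 of the genes in ESCs, 1 in NPCs, 1 in STR, 3 in PFC and 1 in the shared fit, beside 1.13%, 3.03%, 8.70%, 11.2% and 7.38% of all genes. Tests of whether the genotype effect differed between ESCs and NPCs, or between PFC and STR, picked none at either threshold, beside 0% and 0.00624% of all genes past the false discovery rate (the latter all higher) and 1.49% and 6.41% at an unadjusted p under 0.05. The median absolute log2 fold change over the genes was 0.056 in ESCs, 0.064 in NPCs, 0.086 in striatum and 0.103 in PFC, against 0.1, 0.102, 0.107 and 0.102 over all genes.

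The width of the intervals differed between genes and sources. The 95% interval of the KO effect lay within 2-fold in either direction for 36 of 39 genes in ESCs, 37 of 39 in NPCs, 39 of 40 in striatum and 39 of 40 in PFC, and in the shared fit for all 40. It lay within 1.5-fold for 32, 32, 34 and 36 genes, and in the shared fit for 38. The widest intervals in their sources belonged to Kmt2c in ESCs (-1.72 to 1.74), Prdm16 in NPCs (-2.14 to 2.63) and Kdm4d in STR (-0.03 to 1.54). For Kmt2c and Prdm16 there, replicates of a genotype differed far more than genotypes of the same replicate number. Kmt2c held 9.896 and 4.73 RPKM in WT and 10.4 and 4.51 in KO ESCs, and Prdm16 held 1.004, 0.0895 and 0.653 in WT and 1.34, 0.1104 and 0.626 in KO NPCs, in the order of the replicate numbers. In NPCs, where same-numbered samples moved together in every pair, the replicate number as a block narrowed the Prdm16 interval to -0.25 to 0.69 and placed all 39 intervals within 2-fold and 37 within 1.5-fold, with no gene of the 39 called beside 0.0209% of all genes.

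**Figure D3:**
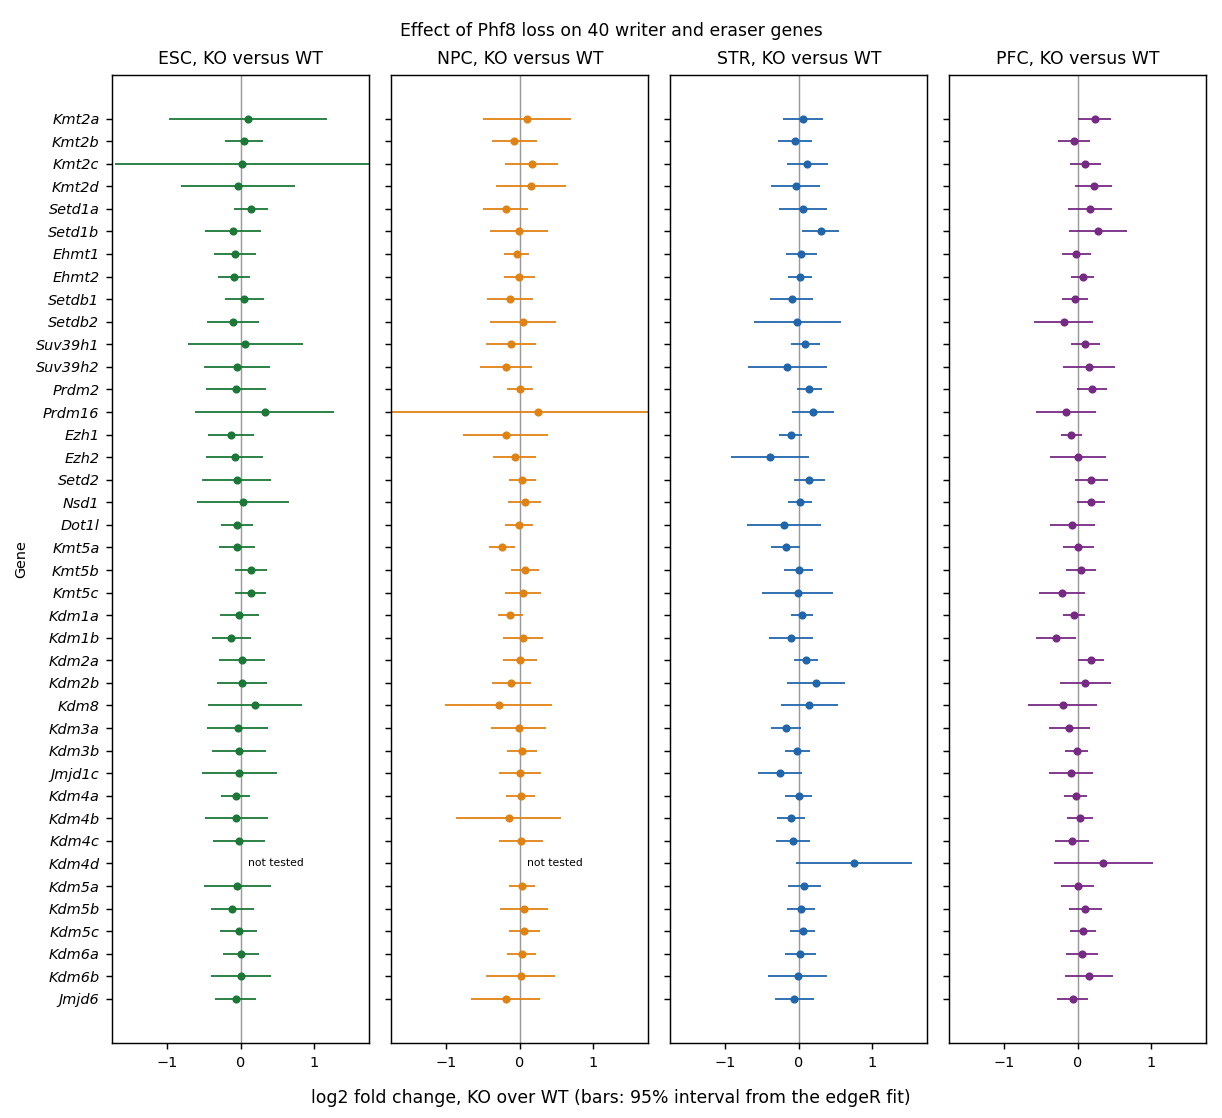
Log2 fold change of KO over WT with its 95% interval for the 40 genes in each source, where points right of 0 are higher in KO. No gene passed the test, Kdm4d was not tested in ESCs and NPCs, and the interval of Prdm16 in NPCs runs past the edge of the axis.

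The H4K20 writer Kmt5a, whose mark Phf8 erases, came closest in NPCs. Its level was 22.2, 23.4 and 22.3 RPKM in WT and 18, 19.4 and 19.7 in KO NPCs. The genotypes did not overlap, with a log2 fold change of -0.25 (SE 0.07, 95% interval -0.42 to -0.07), an unadjusted p of 0.0142 and an adjusted p of 0.9998 in edgeR. In STR it was 11.8, 10.3 and 10.8 RPKM in WT and 9.98, 9.97 and 8.97 in KO, also without overlap (log2 fold change -0.18, SE 0.09, adjusted p = 0.614). In ESCs it was 37.05 and 33.6 in WT and 37.1 and 31.4 in KO, and in PFC it was 12.2, 10.8 and 11.96 in WT and 12.7, 12.3 and 10.2 in KO, and in both the genotypes overlapped. The shared effect was -0.12 (SE 0.05, adjusted p = 0.572). Kdm1a and Setd1a, the next in NPCs, gave -0.13 (SE 0.07, adjusted p = 0.9998) and -0.19 (SE 0.13, adjusted p = 0.9998).

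In PFC the genes with an unadjusted p under 0.05 in the fit without the replicate block were Kdm1b, Kdm2a and Kmt2a. Kdm1b held 3.502, 3.33 and 3.31 RPKM in WT and 2.49, 3.17 and 2.63 in KO, which did not overlap (log2 fold change -0.30, SE 0.13, adjusted p = 0.383). Kdm2a held 8.35, 8.44 and 7.17 RPKM in WT and 9.52, 9.41 and 8.55 in KO, which also did not overlap (log2 fold change 0.18, SE 0.08, adjusted p = 0.416). Kmt2a held 12.8, 13.6 and 10.9 RPKM in WT and 16.9, 14.1 and 13.3 in KO (log2 fold change 0.23, SE 0.10, adjusted p = 0.4201), and the genotypes overlapped. None of the 3 differences passed the adjustment over all genes. The summed level of 7 oligodendrocyte genes was lower in KO than in WT PFC, at 246 to 262 against 322 to 417 RPKM, and so was that of 4 astrocyte genes, at 72.1 to 77.7 against 86.2 to 90.2. Their part in these values was not tested.

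In STR the smallest p belonged to the H3K4 writer Setd1b, with 3.95, 3.34 and 3.25 RPKM in WT and 4.74, 3.76 and 4.42 in KO (log2 fold change 0.30, SE 0.11, adjusted p = 0.497), with overlap between the genotypes. Kdm4d, with 0.663, 0.487 and 0.503 RPKM in WT and 1.13, 0.543 and 1.15 in KO, also overlapping, gave the largest log2 difference, 0.75, with a 95% interval of -0.03 to 1.54. Hypothalamic genes differed between these samples, with a summed RPKM of 10.3 to 191 in KO and 2.5 to 5.85 in WT STR, and the astrocyte sum was 73.03 to 73.9 in KO and 65.05 to 70.1 in WT. Their part was not tested. In ESCs the smallest p values belonged to Kmt5c, Kmt5b and Setd1a, with log2 fold changes that all rounded to 0.14 and adjusted p-values of 1 (95% interval of Kmt5c -0.07 to 0.34). Kmt5c held 27.8 and 25.7 RPKM in WT and 30.98 and 28.02 in KO ESCs. In the shared fit Kdm1b gave -0.11 (SE 0.06, adjusted p = 0.744) and Ezh1 gave -0.13 (SE 0.07, adjusted p = 0.757) after Kmt5a.

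The genes whose KO and WT samples did not overlap were few in each source. In ESCs, 3 genes (7.69%) lay higher in KO beside 11.9% of all genes, and 3 lay lower beside 12%. In NPCs, 0 lay higher beside 3.81% and 2 (5.13%) lay lower beside 4.52%. In STR, 1 (2.5%) lay higher beside 7.57% and 3 (7.5%) lay lower beside 5.87%, and in PFC, 1 (2.5%) lay higher beside 7.74% and 2 (5%) lay lower beside 9.35%. Kmt5a lay lower without overlap in NPCs and STR, Kdm1b in ESCs and PFC, and Ezh1 in STR and PFC. The share of all genes that lay lower in more than 1 source was not computed, so this recurrence has no background to be read against.

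The X-linked erasers Kdm5c and Kdm6a have Y-linked relatives, Kdm5d and Uty, that male cells also express. Kdm5c held 40.3 and 38 RPKM in WT and 42.2 and 35 in KO ESCs, and 12.6, 12.6 and 10.6 in WT and 13.2, 12.03 and 12.8 in KO PFC. Kdm6a held 18.2 and 16.7 RPKM in WT and 19.2 and 16.1 in KO ESCs, and 4.54, 5.07 and 4.26 in WT and 4.46, 5.08 and 5.07 in KO PFC. WT and KO overlapped for both genes in all 4 sources, and the shared effects were 0.05 (95% interval -0.04 to 0.14) for Kdm5c and 0.03 (-0.06 to 0.13) for Kdm6a. The Y-linked genes stood apart in some cultured samples. In ESCs, Uty held 3.71 and 3.28 RPKM in WT and 0.138 and 0.566 in KO, Ddx3y held 16.4 and 13.9 in WT and 0.9004 and 3.62 in KO, and Kdm5d was at or below 0.189 in both genotypes. In NPCs, WT replicate 1 had the lowest Uty level at 1.52 RPKM against 6.78 to 10.04 in the other WT samples. Whether these differences in Y-linked RNA bear on Kdm5c, Kdm6a or any other gene was not tested. In ESCs they cannot be told apart from the Phf8 genotype.

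No partner gene passed the test in any of the 4 sources or in the shared fit either. Of the 41 partners tested in each, edgeR's quasi-likelihood test picked 0, 1, 2 and 2 at an unadjusted p under 0.05 in ESCs, NPCs, STR and PFC, and 7 in the shared fit, beside the same 1.13%, 3.03%, 8.70%, 11.2% and 7.38% of all genes. Their log2 fold changes ran from -0.43 in NPCs to 0.32 in PFC. The Phf8 relatives Phf2 and Kdm7a, which share its JmjC and PHD domains, gave 0.05 and -0.05 in the shared fit (adjusted p = 0.959 and 0.995).

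The tissue differences were seen in the KO samples as well, which shared none of the WT samples. Same-numbered WT and KO samples moved together in the cultured sources, with correlations of 0.876 in ESCs and 0.524 to 0.705 in NPCs. The KO contrasts with these sources are therefore not independent of the WT ones. In KO NPCs against KO ESCs, 24 genes passed, beside 71.1% of all genes, and all 24 had passed in the same direction in WT. In KO PFC against KO NPCs, 36 passed, beside 81.2% of all genes, and all were the 36 of the WT contrast with the same direction. In KO PFC against KO STR, 7 passed, beside 27.7%, and 4 of them had passed in WT. Counting all genes tested in both genotypes, 36 of 39, 38 of 40 and 31 of 40 had the same sign of change in the 3 contrasts. The Ezh2 to Ezh1 ratio in KO samples was 7.505 to 8.37 in ESCs, 7.904 to 11.8 in NPCs, 0.0808 to 0.0925 in striatum and 0.0525 to 0.06302 in PFC, and overlapped the WT range in each source.

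**Figure D4:**
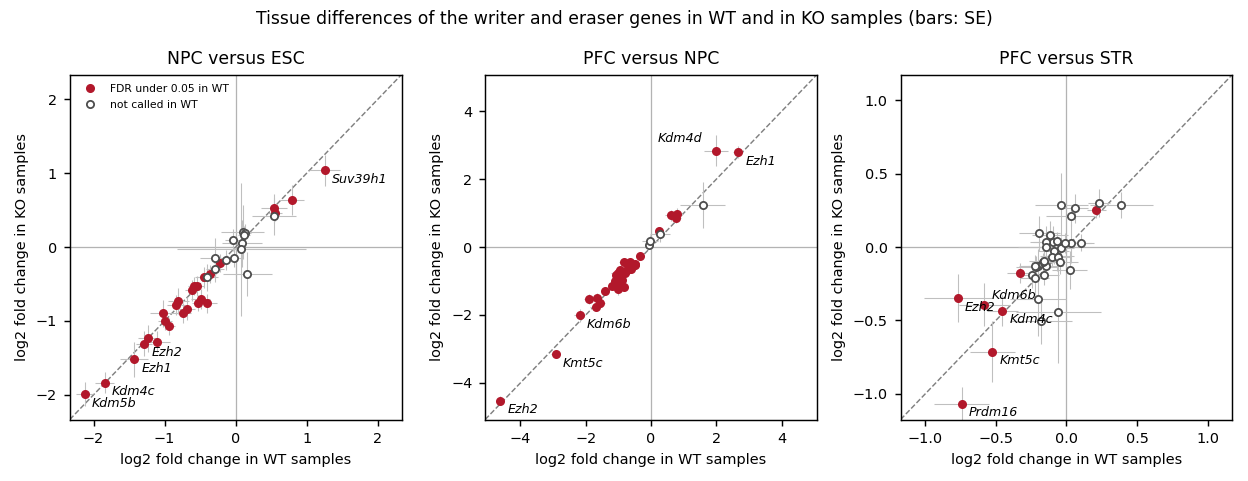
Log2 fold change between sources in WT samples (horizontal axis) against the same contrast in KO samples (vertical axis), 1 point per gene, for NPC against ESC, PFC against NPC and PFC against STR. Points near the diagonal changed alike in both genotypes, and Ezh2 and Ezh1 lie at the opposite ends of the PFC against NPC panel.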

How the data were processed

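The authors aligned reads to the mouse genome mm10 (GRCm38) with STAR and counted them per Ensembl gene (release 75) with HTSeq, and per the submitters' processing notes base calls came from CASAVA 1.7. The files deposited hold unnormalized counts, with 5898286 to 15539811 counts per sample. The strand setting is not given in the sources used here. Symbols and exon lengths came from GENCODE M21, which matched 37607 of the 39179 identifiers, with 99.709% of the counts.

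From the counts, RPKM values were computed with TMM factors over all 22 samples and the exon-union length. Groups followed the labels. KO was compared with WT within each source, over all sources with source as a covariate, and between sources as an interaction, and WT sources were compared with each other, in R 4.3.3 with edgeR 4.0.16 (filterByExpr, TMM, robust quasi-likelihood test, Benjamini-Hochberg over all genes tested, false discovery rate under 0.05). The code was tested on simulated data. Genes and gene lists were chosen with earlier results of these data known. Values were printed for the 3 smallest p per KO comparison, the 4 largest called changes each way per tissue contrast, the highest and lowest member of each class, the X-linked members and the paralog pairs. Other values were added as context for the remaining members. Alternatives were DESeq2 1.42.0, edgeR's exact test, other scalings and filters, left-out samples and a replicate block. Same-numbered samples moved together in NPCs (correlations 0.569, 0.705 and 0.524) and between PFC and STR, though not in STR or PFC alone.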

Additional observations from a re-analysis of the deposited data

How the results depend on the processing

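No writer or eraser passed in any comparison of KO with WT under any setting tried, each single sample left out included (12 settings in ESCs, 14 in each other source and 32 in the shared fit). Requiring a change beyond 2-fold left 8 genes called between WT NPCs and ESCs, 19 between PFC and NPCs and 0 between PFC and STR. Leaving out 1 sample gave 20 to 26, 34 to 37 and 0 to 5 calls in those contrasts. With the replicate block, which pairs PFC with STR samples by number, 13 genes passed in PFC against STR instead of 7, and the block gave 18 calls in NPCs against ESCs and 35 in PFC against NPCs. In KO against WT the block called none of the writers and erasers, while over all genes it moved the calls from 0 to 513 of 15080 in ESCs, from 1 to 3 in NPCs, from 0 to 8 in STR, from 98 to 140 in PFC and from 8 to 72 in the shared fit. In ESCs, where the 2 pairs of same-numbered samples correlated at 0.876, it placed all 39 intervals within 2-fold (Kmt2c -0.11 to 0.11), and ESC samples are not known to be paired beyond their number. With library size only, 25 instead of 27 genes had their highest WT mean in ESCs. Over the 80 log2 fold changes followed for single genes, 1101 alternative values were computed, of which 1016 kept direction and call, 61 lost the call, 3 gained one and 21 changed sign. The 21 belong to 11 small values, and none was called. KO samples instead of WT gave 0.10 for Kdm1b in NPCs against ESCs, and in PFC against STR -0.16 for Kdm1b, 0.0424 for Kdm2a and 0.29 for Suv39h2, and library size only gave -0.0147 for Kdm1b there. Leaving out 1 sample gave, in PFC against STR, -0.0557 to 0.076 for Kdm1b, -0.112 to 0.00601 for Kdm2a, -0.319 to 0.00251 for Setdb2, -0.0703 to 0.00266 for Suv39h1 and -0.118 to 0.146 for Suv39h2, and in NPCs against ESCs -0.0988 to 0.0181 for Kmt5c. In KO against WT it gave -0.114 to 0.0447 for Kdm5c in ESCs, and for Kdm6a -0.0675 to 0.0724 in ESCs, -0.02002 to 0.0832 in NPCs and -0.0431 to 0.0768 in STR. The precision is set by 2 ESC samples per genotype and 3 in each other source.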
